A study of Saccharomyces cerevisiae with 12 samples.

Results

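The small nucleolar and small nuclear RNA genes of Saccharomyces cerevisiae were followed in 2 wine yeasts, with and without added lipids. A gene was included where its array probe set carried a single gene symbol made of SNR and a number. This gave 61 genes of the 5656 that a probe set with 1 symbol named on these one-colour arrays. All 61 were found in the RefSeq gene table of assembly R64, which lists 81 SNR genes, so 20 had no such probe set and were not analysed here. Of the strains, M25 is a wild type from a university culture collection and EC1118 is sold commercially. Each was grown in SJ, a synthetic juice with 200 g/l glucose at pH 3.3, and in FSJ, which is SJ supplemented with the sterol ergosterol and the unsaturated fatty acid oleic acid, each at 15 mg/l. Precultures of 24 h in SJ at 28 °C seeded the cultures, which were harvested at 60 h, with 3 biological replicates per group and 12 arrays in all. The stage of growth reached at 60 h was not analysed here, and fewer cells with a transcript and less of it per cell cannot be told apart in such bulk cultures.

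Small nucleolar RNAs guide chemical changes of ribosomal RNA. Those with box C and box D motifs direct ribose methylation, those with box H and box ACA motifs direct the conversion of uridine to pseudouridine, and a few act in the cleavage of the ribosomal RNA precursor instead. The small nuclear RNAs U1, U4, U5 and U6 are parts of the spliceosome, which removes introns from messenger RNA precursors. Many box C/D RNAs of yeast are cut from a precursor that holds several of them, others from an intron of a protein gene, and most have a promoter of their own. The mature RNAs carry no poly(A) tail, and the primer used for the cDNA is not given in the sources used here, so the signals below need not follow the amount of mature RNA. Sequences of the members were not used here.

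By class, 40 members were box C/D RNAs, 17 were box H/ACA RNAs and 4 were spliceosomal RNAs. A background was set on each array at the 25th percentile of its yeast probe sets, between 16.6 and 21.7 signal units. Probe sets over it on at least 3 of 12 arrays were tested, which kept 49 members, 31 of box C/D, 14 of box H/ACA and all 4 spliceosomal RNAs. Of these 49 members, 32 lay over the background on every array, against 4796 of the 5360 genes that passed. The 12 members left out were SNR74, SNR65, SNR53, SNR190, SNR64, SNR62, SNR42, SNR79, SNR32, SNR47, SNR189 and SNR58, with signals between 0.1 and 26.9. Of these, 10 never passed the background, so the arrays give no level for a member such as SNR190, a box C/D RNA with a known part in ribosome assembly.

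The signals of the members scattered more between replicates than those of other genes. The median residual standard deviation was 0.42 on the log2 scale over the 49 members and 0.23 over the 5360 genes. It was 0.42 for the 25 members in the middle of the members' signal range and 0.25 for 2358 genes in that range. Members also moved together on single arrays: 37 of 49 lay below their group mean on EC1118 in SJ replicate 2, and only 11 of 49 on M25 in SJ replicate 2. The median deviation of the members from their group mean ran from -0.16 on the first of these arrays to 0.19 on M25 in FSJ replicate 3. The part of these array-wide shifts in the results below was not tested, and the arrays on which each call rests are named beside it.

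**Figure D1:**
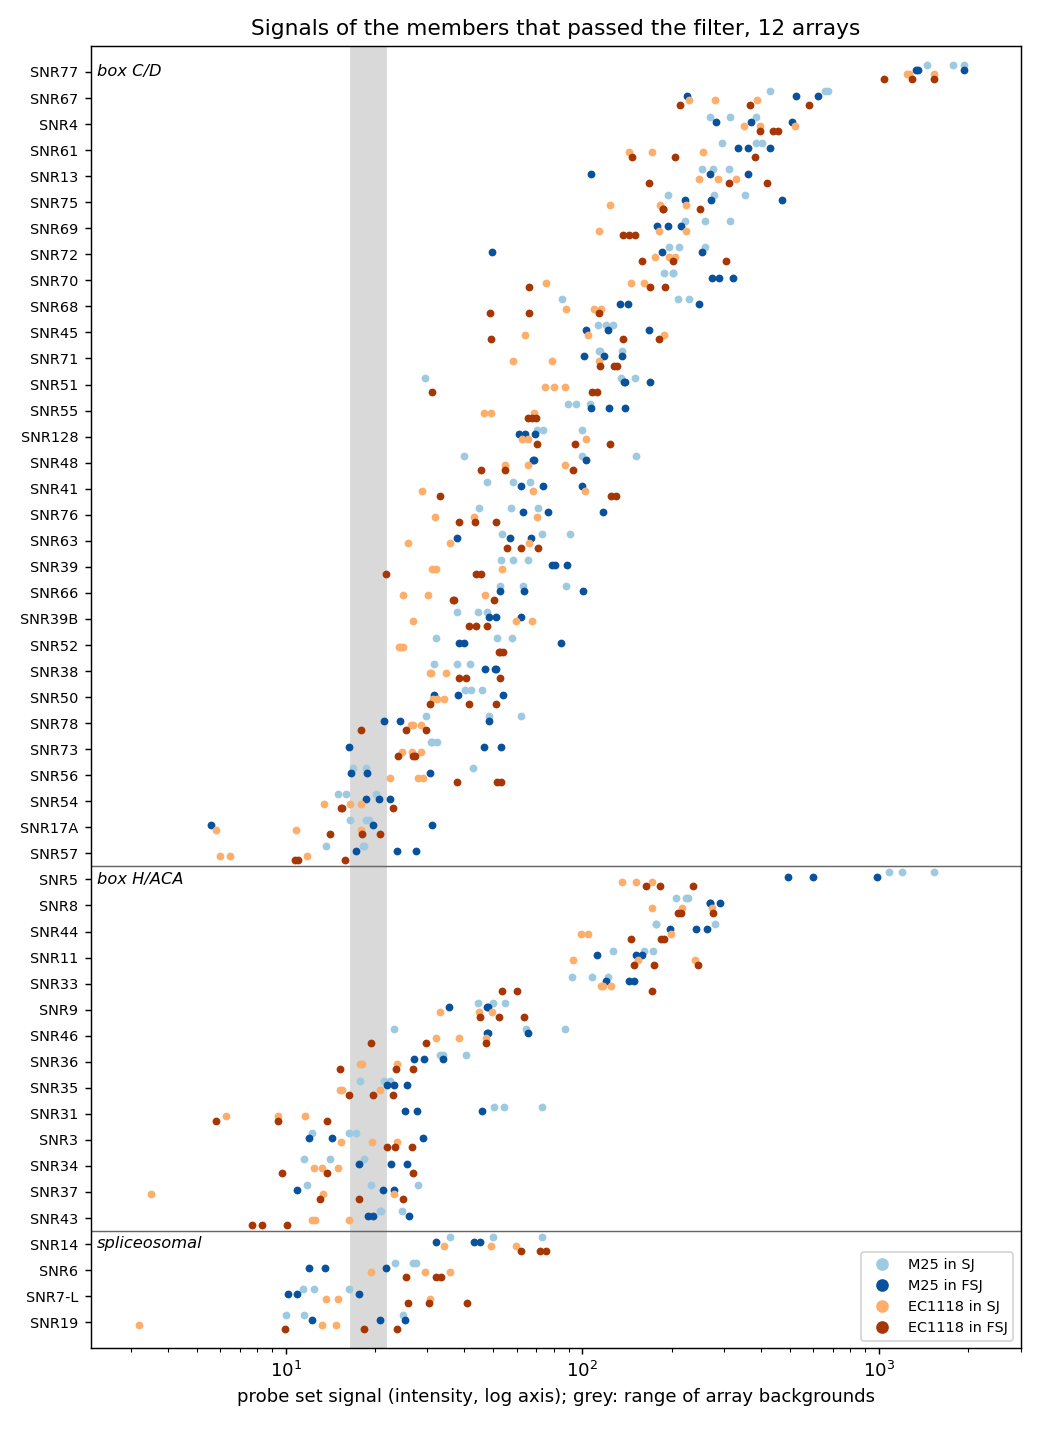
Signals of the 49 small nucleolar and nuclear RNAs that passed the filter, by class, on a log axis of signal (intensity units); each point is 1 of the 12 arrays, coloured by group, and the grey band is the range of the array backgrounds (16.6 to 21.7). SNR5 and SNR31 are the members whose M25 and EC1118 points stand furthest apart, and the EC1118 points of SNR31 lie under the background.

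The strain comparison asks whether these RNAs differ between EC1118 and M25 in the same juice. In SJ, 6 of 49 members were lower in EC1118 (12.2%) and none was higher, beside 10.3% of all 7349 probe sets lower and 9.46% higher (limma, two-sided, Benjamini-Hochberg adjusted p under 0.05). The 6 were SNR5, SNR31, SNR36, SNR55, SNR57 and SNR66. In FSJ, 8 of 49 were lower in EC1118 (16.3%) and 4 were higher (8.16%), beside 12.4% of all probe sets lower and 22.7% higher. The lower members in FSJ were SNR5, SNR31, SNR39, SNR43, SNR55, SNR68, SNR70 and SNR76, and the higher ones SNR6, SNR7-L, SNR14 and SNR56. Over the 5360 genes, with 1 probe set each as for the members, 9.09% were lower and 9.05% higher in SJ. In FSJ 10.4% of these genes were lower and 24.4% higher. On the deposited scale the shares of lower members were near those of all probe sets and somewhat above those of the genes, a difference that was not tested. SNR31, SNR43, SNR57 and SNR7-L passed the filter on arrays of 1 strain alone, so their strain calls are no independent evidence of a difference. Without these 4 members, 4 of 45 were lower in SJ, and 6 were lower and 3 higher in FSJ.

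The median over the members lay below that over all genes in both juices. In SJ the median log2 difference, EC1118 over M25, was -0.35 over the 49 members and -0.035 over all genes, with 40 of 49 members negative. It was -0.39 for box C/D RNAs (26 of 31 negative), -0.33 for box H/ACA RNAs (12 of 14 negative) and -0.025 for the spliceosomal RNAs. In FSJ it was -0.26 over the members, of which 31 of 49 were negative, and 0.17 over all genes. By class the FSJ median was -0.26 for box C/D, -0.46 for box H/ACA and 0.89 for the 4 spliceosomal RNAs. Only 1 of these 4 lay over the background on all arrays, so the last value rests in part on signals under the background. Members that passed the filter through 1 strain alone had to differ, so these medians are descriptions. Over the 32 members above the background on all arrays the median was -0.33 in SJ (27 negative, 3 called lower) and -0.26 in FSJ (20 negative, 6 called lower and 1 higher). The FSJ values depend on the scaling: the median over all genes was 0.035 after quantile normalization and -0.071 with arrays centred on their medians, and the members' median was then -0.41 and -0.50. The share of higher calls among all calls in FSJ was 64.6%, 50.7% and 37.1% under the deposited scale, quantile normalization and centring. With centring SNR8, SNR33, SNR36, SNR57, SNR61, SNR66 and SNR69 were also called lower in EC1118 in FSJ, though SNR57 had no EC1118 array over the background. SNR6, SNR14 and SNR56 were then no longer called higher. Over all probe sets, centring gave 942 higher and 1595 lower of 7349. Between 7 and 16 members were called in FSJ over all alternatives. The counts in FSJ also rest on 1 array, since without EC1118 in FSJ replicate 3 only 1 member was higher and 6 were lower. In SJ, 3 members were called without M25 in SJ replicate 2 or without EC1118 in SJ replicate 1.

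**Figure D2:**
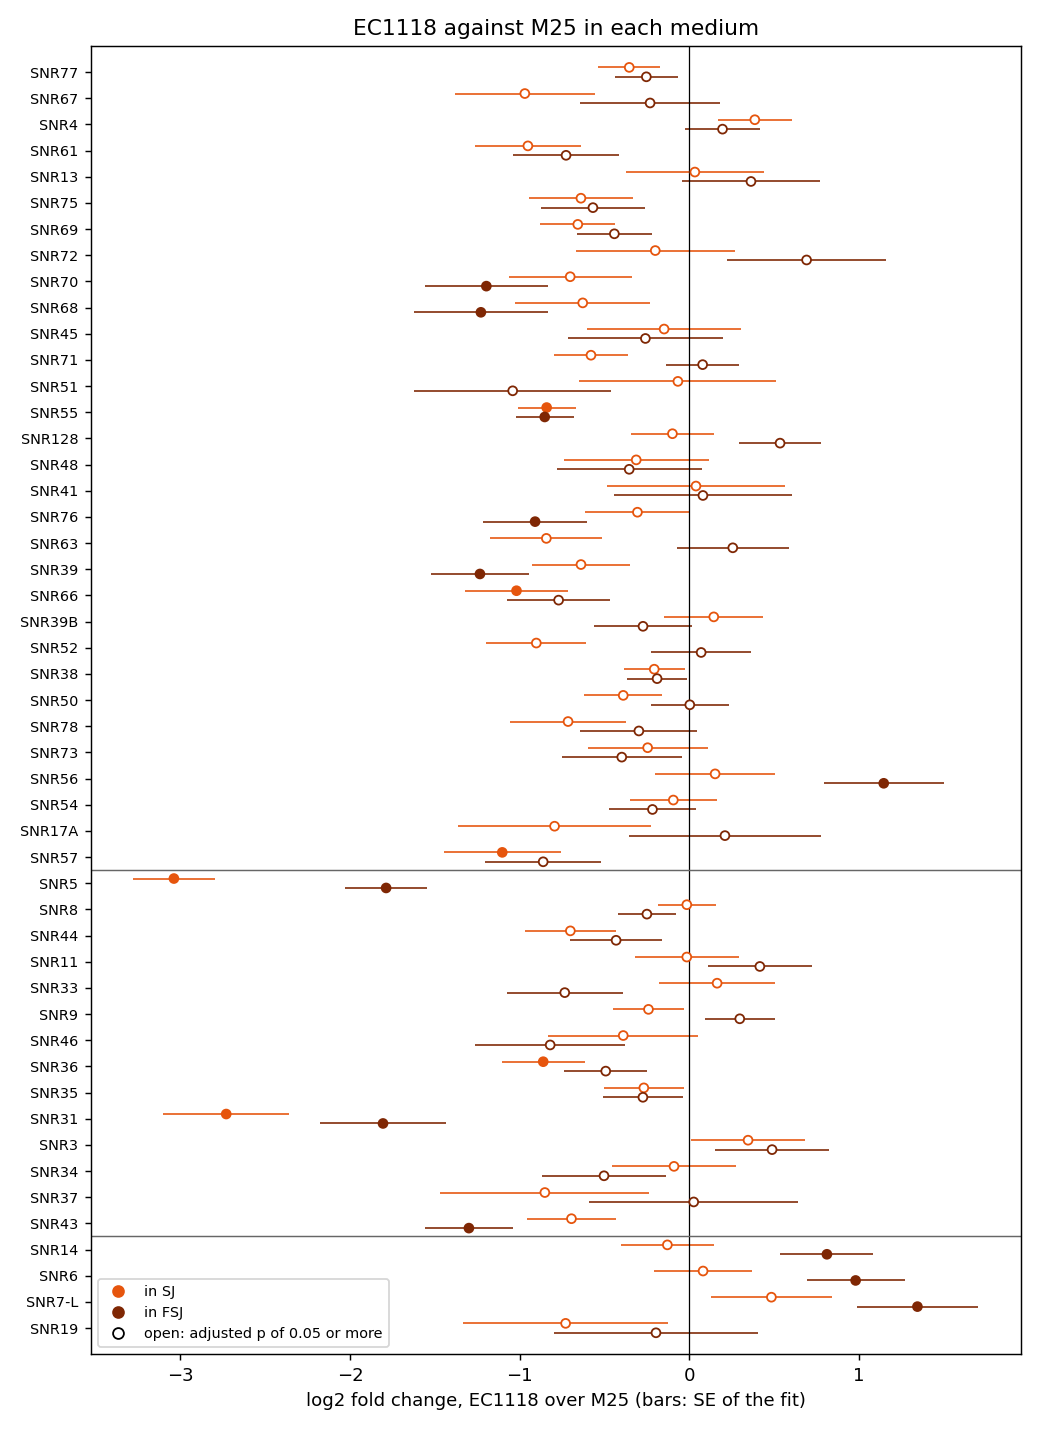
Log2 fold change of EC1118 over M25 in SJ and in FSJ for each of the 49 members, with the standard error of the fit as bars; filled points passed an adjusted p of 0.05. SNR5 (-3.04 in SJ, -1.79 in FSJ) and SNR31 lie to the left, and SNR6, SNR7-L, SNR14 and SNR56 lie to the right in FSJ; points of SNR31, SNR43, SNR57 and SNR7-L are fitted against signals under the background and are not measured differences.

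SNR5, a box H/ACA RNA that guides pseudouridylation of large-subunit ribosomal RNA, showed the lowest adjusted p of the members in each strain comparison. In M25 its signal was 1528.8, 1077.8 and 1191.2 in SJ and 984.1, 597 and 493.7 in FSJ. In EC1118 it was 151.1, 136.3 and 171.9 in SJ and 235.1, 182.9 and 163.9 in FSJ. Every M25 array was thus brighter than every EC1118 array. The signal in EC1118 was 8.22-fold lower in SJ, a log2 difference of -3.04 (SE 0.24, adjusted p = 4.72e-06). In FSJ it was 3.45-fold lower, a log2 difference of -1.79 (SE 0.24, adjusted p = 0.000174). On all 12 arrays the probe set lay over the background, and both calls held under every alternative run, each single array left out included.

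SNR31, a box H/ACA RNA that guides pseudouridylation of small-subunit ribosomal RNA, is the gene next to SNR5 in the RefSeq gene order and showed the same direction. Its signal in M25 was 73.3, 54.3 and 50.4 in SJ and 45.9, 27.7 and 25.3 in FSJ. In EC1118 it was 9.4, 11.6 and 6.3 in SJ and 13.8, 9.4 and 5.8 in FSJ, under the background on all 6 arrays. The EC1118 signals are therefore bounds. Measured against the backgrounds of the EC1118 arrays, SNR31 was at least 3.01-fold lower in SJ and at least 1.56-fold lower in FSJ. The adjusted p of 0.000288 and 0.00276 by limma belong to the fit on the signals under the background and not to these bounds. SNR31 passed the filter on M25 arrays alone, so it was tested because it was high there, and its calls under the alternatives add no support. No M25 array overlapped an EC1118 array in either juice, which adds no support for a member tested through its M25 arrays.

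The protein genes on either side of the SNR31 and SNR5 pair did not follow it. CAF20, a repressor of cap-dependent translation, averaged 1079 ± 17.6 in M25 and 1237 ± 91.8 in EC1118 in SJ (SD, n = 3, adjusted p = 0.204 by limma). In FSJ it was higher in EC1118 by 0.35 on the log2 scale (adjusted p = 0.0159), a call lost with arrays centred on their medians (0.392) and without M25 in FSJ replicate 3 (0.0591). HEM4, an enzyme of heme synthesis, averaged 133.8 ± 15.0 in M25 and 127.7 ± 27.3 in EC1118 in SJ and did not pass the test in either juice (adjusted p = 0.816 and 0.794). A different sequence under the probes in 1 strain and a different level of the RNA cannot be told apart on these arrays.

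**Figure D3:**
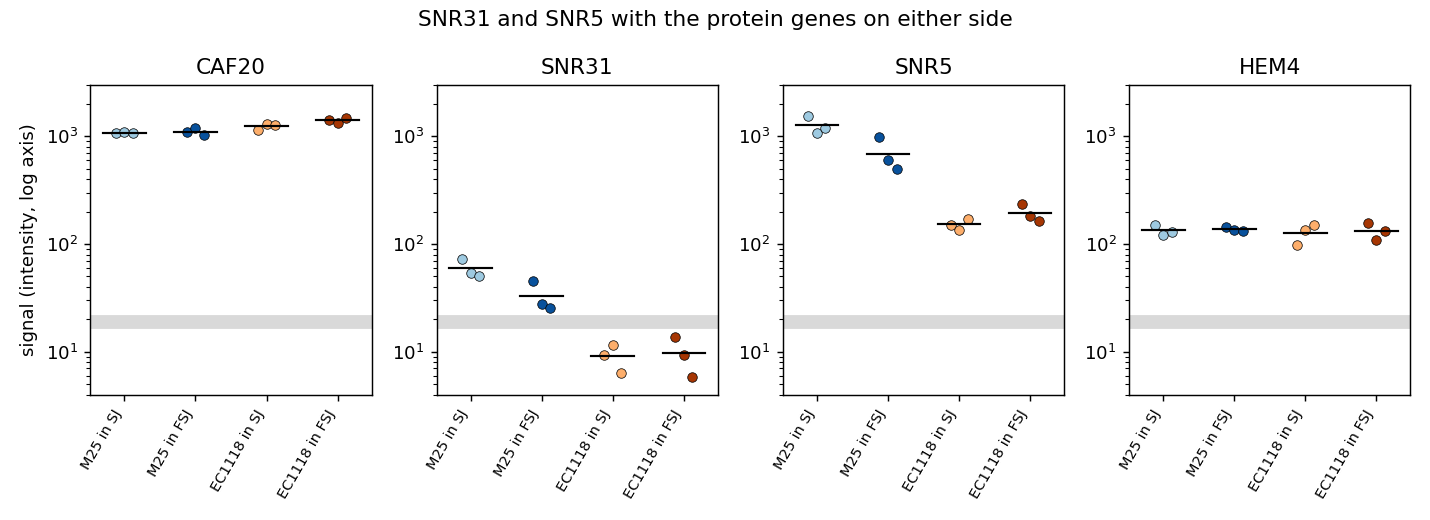
Signals of SNR31 and SNR5 and of their neighbours CAF20 and HEM4 on each array by group, on a log axis of intensity; points are arrays and bars are group means. SNR5 falls between M25 and EC1118 without overlap, while CAF20 (means 1079 to 1406) and HEM4 (means 127.7 to 137.6) show no such drop. SNR31 passed the filter on M25 arrays alone and lay under the background on every EC1118 array, so its drop is a bound and adds no support.

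SNR55, a box C/D RNA that guides methylation of small-subunit ribosomal RNA, was lower in EC1118 in both juices as well. Its signal in SJ was 95.1, 105.8 and 89.6 in M25 against 46.6, 49 and 68.6 in EC1118. In FSJ it was 106.6, 138.9 and 123 in M25 and 67.4, 70 and 65.5 in EC1118. The groups did not overlap in either juice. SNR55 was 1.79-fold lower in EC1118 in SJ (log2 -0.84, SE 0.17, adjusted p = 0.00442) and 1.81-fold lower in FSJ (log2 -0.85, SE 0.17, adjusted p = 0.00236), and these calls held under every alternative run. SNR5, SNR31 and SNR55 were the 3 members lower in both juices, beside 6.94% of all probe sets.

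SNR55 is cut from 1 precursor with SNR57 and SNR61, and these lie in a row in the RefSeq gene order. SNR57, which guides methylation of small-subunit ribosomal RNA, gave 13.7, 18.2 and 18.3 in M25 against 6.5, 6 and 11.8 in EC1118 in SJ. It was called lower in EC1118 there (adjusted p = 0.0411), but it passed the background on just 1 of these 6 arrays and on no EC1118 array of either juice, so no size is given and the call is no support. That call was lost under 3 alternatives (adjusted p = 0.056 to 0.979) and without any 1 of M25 in SJ replicates 1 to 3, EC1118 in SJ replicates 1 and 2, M25 in FSJ replicate 2 and EC1118 in FSJ replicate 1 (0.0512 to 0.126). SNR61, which guides methylation of large-subunit ribosomal RNA, gave 383.5, 294.7 and 402.3 in M25 against 143.1, 254.9 and 172.1 in EC1118 in SJ. Its difference of -0.95 (SE 0.31) had an adjusted p of 0.0506, and it was -0.73 in FSJ (adjusted p = 0.0914). The SJ value passed under 3 alternatives and without any 1 of EC1118 in SJ replicate 2 and EC1118 in FSJ replicates 1 and 3 (0.0139 to 0.047). The gene before this row, MID2, which encodes a sensor of cell wall stress, was also lower in EC1118, by -1.36 in SJ (adjusted p = 0.000148) and -0.61 in FSJ (adjusted p = 0.0155, and 0.061 without M25 in FSJ replicate 3). RPS25B, a small-subunit ribosomal protein gene after the row, did not pass the test in either juice.

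Among the other box H/ACA RNAs, SNR36 and SNR43 were each lower in EC1118 in 1 juice. SNR36, a guide for the small subunit, gave 34, 40.5 and 33.1 in M25 against 18, 23.7 and 17.8 in EC1118 in SJ. The groups did not overlap, and the 1.82-fold lower signal passed the test (log2 -0.86, SE 0.25, adjusted p = 0.0279). The backgrounds of these EC1118 arrays were 19.1, 19.7 and 19.5, so replicates 1 and 3 lay under them and the fold is partly fitted to dim signals. The smallest SJ difference of SNR36 under any alternative was -0.53. The SJ call did not pass with the replicate number as a block (adjusted p = 0.0527) or without any 1 of M25 in SJ replicates 1 to 3 and EC1118 in SJ replicates 1 and 3 (0.0613 to 0.104). In FSJ the difference of SNR36 was -0.49 (adjusted p = 0.143), and with centring it was -0.73 and passed (0.0366).

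SNR43, a guide for the large subunit, gave 19.6, 26 and 18.9 in M25 against 7.7, 8.3 and 10.1 in EC1118 in FSJ. All 6 EC1118 arrays of both juices were under the background, so the signal was at least 1.05-fold lower in EC1118 in FSJ. The adjusted p of 0.00243 by limma belongs to the fit on the signals under the background and not to this bound. SNR43 passed the filter on M25 arrays alone, the stricter filter left it out, with signals raised to the background the difference did not pass (adjusted p = 0.588), and in SJ it was -0.70 (adjusted p = 0.0847).

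The remaining lower calls, all of box C/D RNAs, passed in 1 juice, and some passed in the other under alternatives. SNR66, a guide for the large subunit, gave 63.2, 87.9 and 52.6 in M25 against 24.8, 47 and 30.1 in EC1118 in SJ. It was 2.03-fold lower in EC1118 in SJ (log2 -1.02, SE 0.30, adjusted p = 0.0332), and in FSJ the difference was -0.77 (adjusted p = 0.067). The FSJ difference passed under quantile normalization (-0.97, 0.0341), with centring (-1.01, 0.0222) and without M25 in FSJ replicate 1 (-0.97, 0.0449). The SJ call was lost without a filter (0.0586) and without any 1 of M25 in SJ replicates 1 and 2 and EC1118 in SJ replicates 1 and 3 (0.0707 to 0.131).

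SNR39, a guide for the large subunit, gave 78.8, 88.4 and 81.1 in M25 against 45.6, 43.8 and 21.7 in EC1118 in FSJ. The groups stood well apart, and the signal was 2.35-fold lower in EC1118 (log2 -1.23, SE 0.29, adjusted p = 0.00597), a call that held under every alternative run. In SJ the same difference was -0.64 (adjusted p = 0.149), where EC1118 replicate 3 (53.7) reached the range of M25 (53.3 to 65.3). This SJ difference passed without EC1118 in FSJ replicate 3 (0.0486).

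SNR70, a guide for the small subunit, gave 274.4, 321.7 and 287.7 in M25 against 168.5, 189.5 and 66 in EC1118 in FSJ. It was 2.29-fold lower in EC1118 there (log2 -1.20, SE 0.36, adjusted p = 0.0239). The call was lost without any 1 of M25 in FSJ replicates 2 and 3 and EC1118 in FSJ replicate 3 (0.053 to 0.0668), the last of which is the dim array.

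SNR68 and SNR76, both guides for the large subunit, were the last of the lower members in FSJ. SNR68 gave 134.3, 142.4 and 246.6 in M25 and 113.6, 65.9 and 48.9 in EC1118, 2.34-fold lower (log2 -1.23, SE 0.40, adjusted p = 0.0314). It was lost without a filter (0.0593) and without any 1 of M25 in FSJ replicate 3 and EC1118 in FSJ replicates 2 and 3 (0.067 to 0.115). SNR76 gave 63.1, 76.3 and 117.3 in M25 and 43.6, 38.3 and 51 in EC1118, 1.88-fold lower (log2 -0.91, SE 0.31, adjusted p = 0.0372). It was lost without a filter (0.0639) and without any 1 of M25 in SJ replicate 3, M25 in FSJ replicates 2 and 3 and EC1118 in FSJ replicates 1 and 2 (0.0515 to 0.14). Neither pair of groups overlapped in FSJ.

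Among the spliceosomal RNAs, SNR14 and SNR6 were called higher in EC1118 than in M25 in FSJ, as were 22.7% of all probe sets. SNR7-L was called too but was tested only because of its EC1118 arrays. SNR14, the U4 RNA that pairs with U6 before the spliceosome is activated, gave 43.1, 32 and 45.2 in M25 and 71.7, 62.3 and 75.2 in EC1118. Its signal was 1.75-fold higher in EC1118 (log2 0.81, SE 0.27, adjusted p = 0.038). The call was lost under quantile normalization, centring, no filter and the replicate block (0.0579 to 0.139) and without any 1 of M25 in SJ replicate 3, M25 in FSJ replicates 1 and 2 and EC1118 in FSJ replicates 1 and 3 (0.0524 to 0.126).

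SNR6, the U6 RNA, which RNA polymerase III makes, gave 12, 21.8 and 13.6 in M25 against 32, 25.5 and 33.4 in EC1118 in FSJ. It was 1.97-fold higher in EC1118 (log2 0.98, SE 0.29, adjusted p = 0.0208), with 1 of the 3 M25 arrays over the background. Centring ended the call (0.0659), as did leaving out any 1 of M25 in FSJ replicates 1 and 3 and EC1118 in FSJ replicates 1 and 3 (0.0551 to 0.0743).

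SNR7-L, the long form of the U5 RNA that holds the exon ends in place, gave 10.9, 17.7 and 10.2 in M25 against 40.7, 25.9 and 30.5 in EC1118 in FSJ. All 6 M25 arrays of both juices were under the background, so SNR7-L was at least 1.67-fold higher in EC1118. The adjusted p of 0.0127 by limma belongs to the fit on the signals under the background and not to this bound. SNR7-L passed the filter on EC1118 arrays alone, and the stricter filter left it out, so the call is a description of these arrays. SNR19, the U1 RNA that recognises the start of an intron, gave 20.8, 12.3 and 25.3 in M25 and 18.3, 9.9 and 23.7 in EC1118, and the groups overlapped (log2 -0.20, SE 0.60, adjusted p = 0.829). SNR19 passed the background on 1 of the 3 FSJ arrays of each strain. In SJ no spliceosomal RNA passed the test, with differences of -0.13 for SNR14 and 0.080 for SNR6.

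SNR56, a guide for the small subunit, was the only box C/D RNA called higher in EC1118. In FSJ it gave 18.8, 16.6 and 30.7 in M25 and 53.1, 37.8 and 51.6 in EC1118, 2.21-fold higher (log2 1.14, SE 0.35, adjusted p = 0.0258), with 1 of the 3 M25 arrays over the background. Quantile normalization and centring ended the call (0.0615 and 0.0694), as did leaving out any 1 of M25 in FSJ replicates 1 and 2 and EC1118 in FSJ replicates 1 and 3 (0.0715 to 0.0877).

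The lipid comparison asks whether ergosterol and oleic acid moved these RNAs within a strain. Averaged over the strains, none of the 49 members passed the test, beside 4.03% of all probe sets higher and 5.06% lower in FSJ. By limma, 4 of 49 members had an unadjusted p under 0.05, beside 1391 of 5360 genes. All 4 (SNR38, SNR52, SNR55 and SNR57) were box C/D RNAs with higher signals in FSJ. SNR57 was under the background on every EC1118 array, so its averaged difference is not a measured one. The median log2 difference, FSJ over SJ, was 0.14 over the members and -0.012 over all genes, and 34 of 49 were positive, 23 of 31 among box C/D RNAs and 8 of 14 among box H/ACA RNAs. In EC1118 none of 49 was called, beside 0.667% of all probe sets higher and 1.18% lower. There 6 members had an unadjusted p under 0.05 by limma, beside 943 of 5360 genes. In M25, 1 of 49 was called (2.04%), lower, beside 5.91% of all probe sets lower and 2.84% higher. The M25 medians over all genes and over the members were -0.11 and 0.065 on the deposited scale, -0.0099 and 0.19 after quantile normalization, and 0.075 and 0.25 with centring. The share of higher calls among all calls moved from 32.5% to 43.1% and 72.5% in M25 under these scalings, from 44.3% to 49.2% and 62.9% averaged over the strains, and from 36.0% to 34.0% and 25.4% in EC1118.

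The called member in M25 was SNR5, whose array values are given above: it fell 1.89-fold in FSJ (log2 -0.92, SE 0.24, adjusted p = 0.0356), and the M25 arrays of the 2 juices did not overlap. In EC1118 its difference was 0.33 (adjusted p = 0.533), and the test of the difference between the strains gave 1.25 (SE 0.34, adjusted p = 0.168). The M25 call was lost under quantile normalization, centring, no filter and no intensity trend (0.0504 to 0.0719) and without any 1 of M25 in SJ replicates 1 to 3 and M25 in FSJ replicates 2 and 3 (0.0607 to 0.128). SNR31 lay in the same direction in M25, at -0.88 (SE 0.37, adjusted p = 0.16), with no overlap of the juices. The strain comparisons and these lipid comparisons use the same arrays.

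No member passed the test of a different lipid response in the strains, beside 0.15% of all probe sets higher and 0.0544% lower. There were 5 members with an unadjusted p under 0.05 by limma, beside 872 of 5360 genes. Of the spliceosomal RNAs, SNR14 gave a difference in response, EC1118 minus M25, of 0.94 (SE 0.39, adjusted p = 0.29) and SNR6 of 0.90 (SE 0.41, adjusted p = 0.322). SNR7-L and SNR19 were under the background on most arrays and have no measured response. The median of this difference was 0.22 over the members and 0.20 over all genes on the deposited scale, 0.053 and 0.056 after quantile normalization and -0.023 and -0.049 with centring. Higher calls made up 73.3% of all calls on the deposited scale, 55.6% after quantile normalization and 15.0% with centring.

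SNR38 and SNR52 came nearest to a call for the lipids. SNR38, a guide for the large subunit, gave 31.7, 37.9 and 41.8 in SJ and 50.7, 47.1 and 51 in FSJ in M25. In EC1118 it gave 30.6, 34.6 and 30.8 in SJ and 40.5, 52.8 and 38.3 in FSJ. The juices did not overlap in either strain, yet the averaged difference of 0.43 (SE 0.13) had an adjusted p of 0.0535. It passed with centring, with signals raised to the background and without an intensity trend (0.0298 to 0.0375), and without EC1118 in FSJ replicate 3 (0.037).

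SNR52, a guide for both subunits that RNA polymerase III makes, gave 24.8, 24.1 and 24.5 in SJ and 52.9, 52.5 and 54 in FSJ in EC1118. In M25 it gave 32.2, 51.4 and 57.8 in SJ and 38.5, 40 and 84.4 in FSJ, so the juices overlapped there. The EC1118 difference of 1.12 (SE 0.30) had an adjusted p of 0.0865 with the spread shared by all groups. It was 0.0217 without M25 in FSJ replicate 3, the array at 84.4. The averaged difference was 0.63 (adjusted p = 0.0849). Between the strains in SJ, SNR52 was lower in EC1118 by -0.90, which did not pass the test. That difference passed with signals raised to the background, the replicate block and averaged probe sets (0.0404 to 0.047). It also passed without any 1 of M25 in SJ replicate 1 and M25 in FSJ replicates 1 to 3 (0.0128 to 0.04998).

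**Figure D4:**
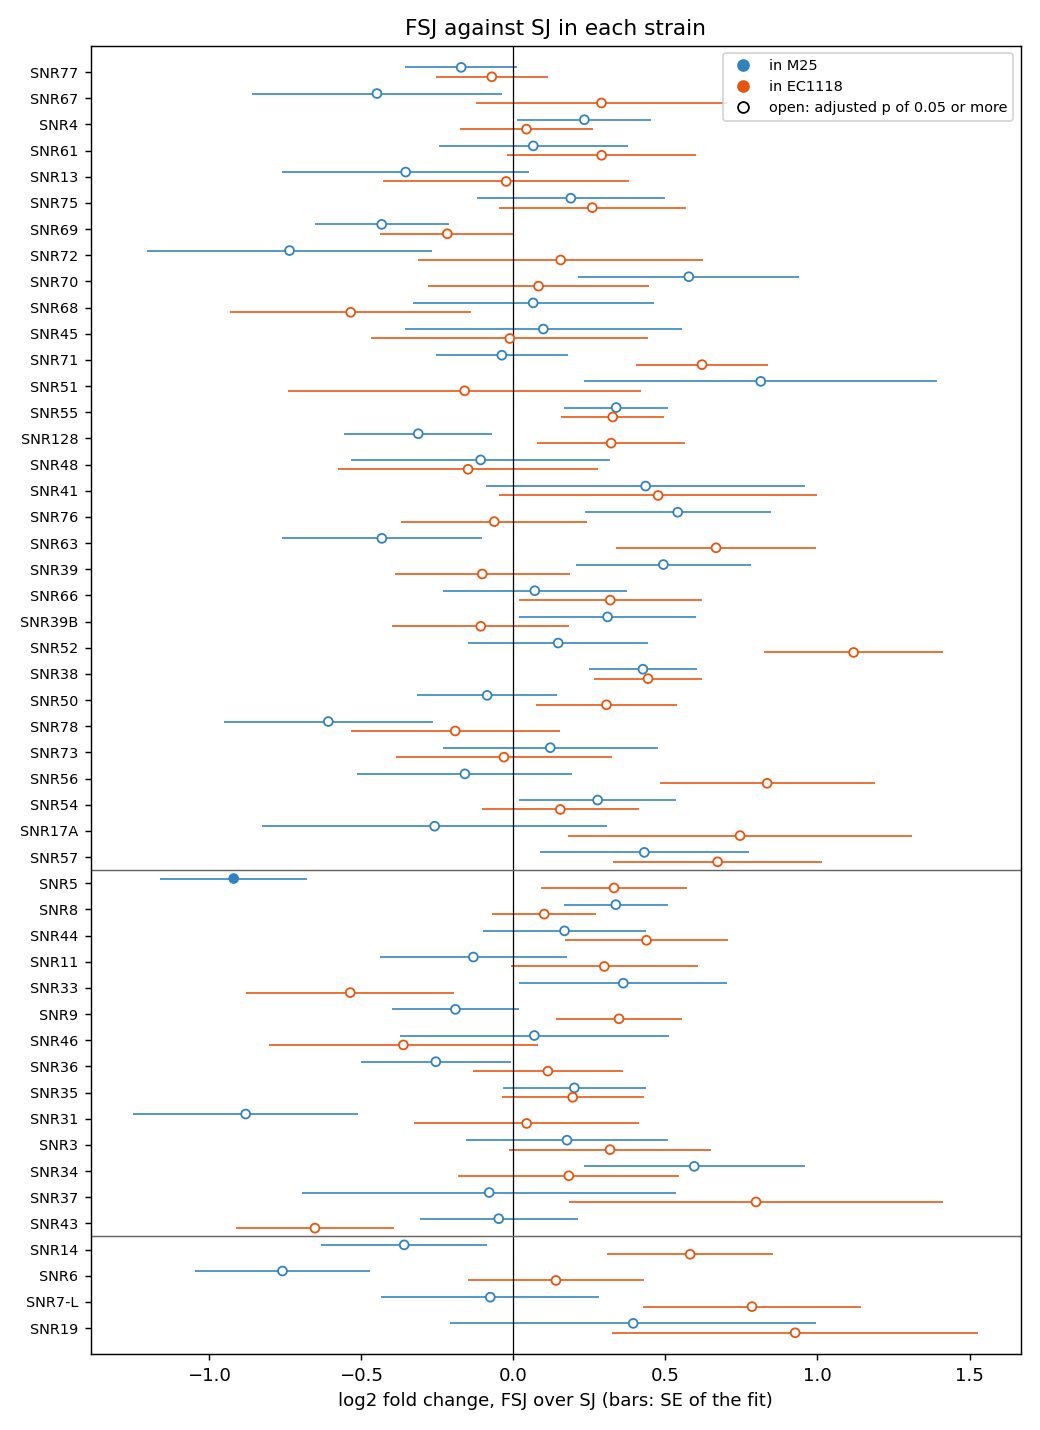
Log2 fold change of FSJ over SJ in M25 and in EC1118 for each of the 49 members, with the standard error of the fit as bars; the filled point, SNR5 in M25 at -0.92, is the only one with an adjusted p under 0.05. SNR52 in EC1118 (1.12) is the highest point of the plot.

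Members of a shared precursor gave like differences in some rows and not in others. SNR55 and SNR61 differed between the strains by -0.84 and -0.95 in SJ and by -0.85 and -0.73 in FSJ, with the SNR61 values not passing the test. In the row of SNR41, SNR70 and SNR51, SNR70 was lower in EC1118 in FSJ as given above, while SNR41, a guide for the small subunit, differed by 0.079 (SE 0.52, adjusted p = 0.923). SNR41 gave 62.2, 99.6 and 73.9 in M25 against 130, 125.1 and 33.2 in EC1118 in FSJ. SNR51, a guide for both subunits, gave 138.5, 168.5 and 139.5 in M25 and 111.7, 107.4 and 31.1 in EC1118 there (log2 -1.04, SE 0.58, adjusted p = 0.188). EC1118 in FSJ replicate 3 was the dimmest of its group for all 3, and EC1118 in SJ replicate 2 the dimmest of its group as well. In M25 in SJ, replicate 2 was low for SNR51 (29.5, against 150.5 and 135.1) but not for SNR70 (201.3, against 202.3 and 187.9).

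The SNR72 to SNR78 precursor holds 7 box C/D RNAs, of which 6 were measured and SNR74 was under the filter. SNR76 was the only one called between the strains. SNR77, a guide for the small subunit with a bright probe set, averaged 1724 ± 252 in M25 and 1344 ± 163 in EC1118 in SJ (SD, n = 3), and it passed no test (log2 -0.35 in SJ, SE 0.18, adjusted p = 0.213). Its neighbours for the large subunit gave strain differences in SJ of -0.20 for SNR72, -0.25 for SNR73, -0.64 for SNR75 and -0.72 for SNR78, none of which passed. Single arrays again differed between RNAs of this precursor: on M25 in FSJ replicate 2, SNR72 gave 49.5 against 185.3 and 253.4, and SNR73 gave 16.3 against 53 and 46.4. SNR77 gave 1331.9 on that array, against 1358.9 and 1937.4.

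**Figure D5:**
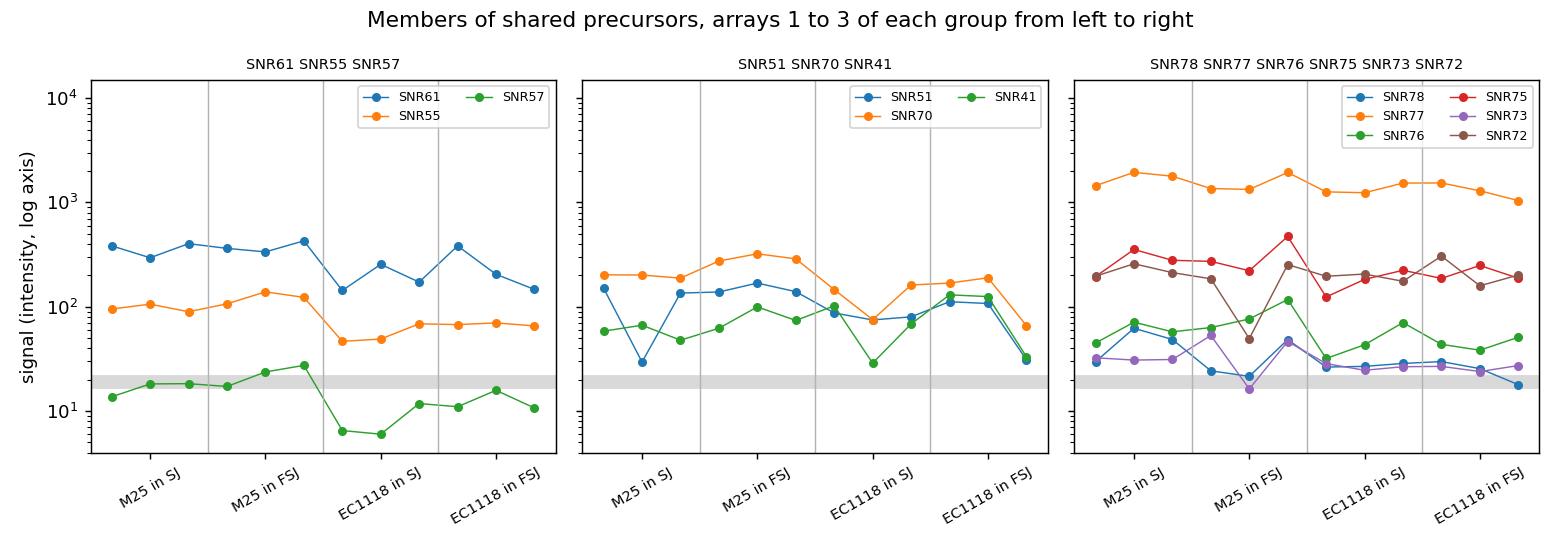
Signals of the measured members of 3 shared precursors on a log axis of intensity, arrays 1 to 3 of each group from left to right; lines join the values of 1 RNA as a guide, and the grey band is the range of the array backgrounds. In the row of SNR61, SNR55 and SNR57 the lines of SNR61 and SNR55 drop from M25 to EC1118 in SJ. SNR57 was under the background on every EC1118 array and shows no measured drop. In the row of SNR51, SNR70 and SNR41 all 3 dip on the last EC1118 array in FSJ (31.1, 66 and 33.2).

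In 2 further precursors 1 partner was under the filter. SNR67, a guide for the large subunit encoded beside the unmeasured SNR53, gave 670.5, 655.4 and 427.5 in M25 against 279.9, 229.3 and 389.3 in EC1118 in SJ. The groups did not overlap in SJ, but the difference of -0.97 (SE 0.41) did not pass (adjusted p = 0.126). SNR128, the U14 RNA, is encoded beside SNR190 and both guides methylation and acts in the cleavage that frees small-subunit ribosomal RNA. It gave 73.8, 99.8 and 70.3 in M25 against 62.6, 65.3 and 102.8 in EC1118 in SJ, with a difference of -0.10 (SE 0.24, adjusted p = 0.831). In FSJ its difference was 0.53 (adjusted p = 0.11). SNR17A, a gene of the U3 RNA that is needed for the same cleavages, passed the background on 3 of 12 arrays, between 5.6 and 31, and passed no test.

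For the 4 measured RNAs encoded in introns, the array also reports the host gene. TEF4, a translation elongation factor gene and host of SNR38, averaged 582 ± 94.1 in M25 and 1038 ± 154 in EC1118 in SJ, and 636 ± 15.8 and 1301 ± 225 in FSJ (SD, n = 3). It was higher in EC1118 by 0.84 in SJ (adjusted p = 0.00299) and by 1.02 in FSJ (adjusted p = 0.000478). SNR38 itself differed between the strains by -0.21 and -0.19 (adjusted p = 0.483 and 0.438).

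RPL7A, a large-subunit ribosomal protein gene and host of SNR39, was higher in FSJ in M25 by 0.33 (adjusted p = 0.0373) and lower in EC1118 than in M25 in FSJ by -0.29 (adjusted p = 0.0196). The first call was lost under 4 alternatives and without any 1 of the 6 M25 arrays and EC1118 in SJ replicate 3 (0.0533 to 0.145), and the second under 2 alternatives and with M25 in FSJ replicate 1 or 3 or EC1118 in FSJ replicate 2 left out (0.0546 to 0.131). SNR39 had the same signs, 0.49 (adjusted p = 0.312) and -1.23 (adjusted p = 0.00597). SNR44, a box H/ACA guide for both subunits in an intron of RPS22B, and its host passed no test. SNR54, a guide for the small subunit, passed none either, while its host IMD4, a gene of guanine nucleotide synthesis, was higher in EC1118 in FSJ by 0.38 (adjusted p = 0.0119, and 0.313 with centring).

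SNR8, SNR44, SNR77, SNR67 and SNR4 have bright probe sets, and with all arrays on the deposited scale none of these 5 members passed a test in any comparison. With centring SNR8 was lower in EC1118 in FSJ (-0.49, adjusted p = 0.0368). Without EC1118 in SJ replicate 3, SNR44 was lower in EC1118 in SJ (-1.02, adjusted p = 0.0122). SNR8, a guide for the large subunit, gave 226.8, 223.1 and 206.5 in SJ and 290.6, 268.7 and 269.6 in FSJ in M25. The M25 juices did not overlap, but the difference of 0.34 (SE 0.17) had an adjusted p of 0.243, and in EC1118 it was 0.10 (adjusted p = 0.831). SNR4, which guides acetylation of small-subunit ribosomal RNA, gave 315.1, 268.6 and 386.1 in M25 against 397.1, 350.6 and 522.8 in EC1118 in SJ (log2 0.39, adjusted p = 0.263). SNR45, which guides acetylation at another site of that RNA, ran from 49.2 to 188.2 over the 12 arrays, with both ends in EC1118 in its 2 juices, and passed no test.

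The other 15 measured members, 7 box C/D and 8 box H/ACA RNAs, passed no test. Their strain differences ran from -0.85 for SNR37 to 0.35 for SNR3 in SJ, and from -0.82 for SNR46 to 0.49 for SNR3 in FSJ. SNR69, a guide for the large subunit, came nearest to a call in SJ, at -0.66 (adjusted p = 0.0559), and was lower in EC1118 with EC1118 in SJ replicate 3 left out (0.0196). In FSJ it was lower in EC1118 under quantile normalization (-0.65, 0.0414) and centring (-0.68, 0.03025). Averaged over the strains, it was lower with lipids without EC1118 in SJ replicate 2 (0.0443). SNR71 and SNR63 were lower in EC1118 in SJ without EC1118 in SJ replicate 3 (0.014 and 0.0175), SNR63 also with the replicate block (0.0301). SNR3 was higher in EC1118 in FSJ without M25 in FSJ replicate 3 (0.0426). SNR33, another guide for the large subunit, gave 115.8, 124.5 and 117.7 in SJ and 172.1, 60.2 and 53.7 in FSJ in EC1118, so that the first FSJ array lay above the SJ range and the other 2 below it. Without that array it was lower in FSJ than in SJ in EC1118 by -1.07 (adjusted p = 0.0108) and lower than in M25 in FSJ by -1.27 (0.000284). On M25 in SJ replicate 1, SNR48 (39.9, against 152 and 100) and SNR46 (23.2, against 87.4 and 64.4) were both low, as was SNR68 (85.2, against 229.4 and 210.7). SNR39B had a second tested probe set, with means from 30.1 ± 3.56 in M25 in FSJ to 38.0 ± 5.33 in EC1118 in FSJ (SD, n = 3), and neither of its probe sets was called.

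The proteins that work with these RNAs were read from lists of related genes. Over all genes, 9.05% were higher in EC1118 in SJ and 24.4% in FSJ, and 4.63% were higher with lipids averaged over the strains. The counts of this paragraph stand beside those shares. Of the 5 box C/D core proteins, NOP58, which binds the box C/D RNAs, was called higher in EC1118 in both juices and the other 4 in neither. Its signal averaged 1310 ± 125 in M25 and 2666 ± 373 in EC1118 in SJ (log2 1.02, adjusted p = 0.00016), and 1171 ± 81.0 and 3190 ± 331 in FSJ (log2 1.44, adjusted p = 8.13e-06). With the mean of its probe sets the SJ call was lost (adjusted p = 0.403), so its probe sets disagree. Of the 3 measured box H/ACA core proteins, GAR1 was higher in FSJ averaged over the strains by 0.34 (adjusted p = 0.046), and the pseudouridine synthase CBF5 was higher in EC1118 in FSJ by 0.39 (adjusted p = 0.048). Leaving out any 1 array but M25 in FSJ replicate 3 ended the GAR1 call (0.054 to 0.111), as did quantile normalization, no filter, the replicate block and no intensity trend (0.0559 to 0.0811). Leaving out any 1 array but EC1118 in SJ replicate 1 and the FSJ replicates 1 of EC1118 and 2 of M25 ended the CBF5 call (0.054 to 0.16). So did no filter and no intensity trend (0.0609 and 0.0741), and centring took it to 0.15 (0.439). Of 9 assembly factors only SHQ1 was called, higher in EC1118 in FSJ by 0.47 (adjusted p = 0.0411), a call lost under quantile normalization (0.222), centring (0.296) and the replicate block (0.0604) and without any 1 array but EC1118 in SJ replicates 1 and 2 (0.0505 to 0.113).

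Of 19 maturation and surveillance factors, 6 were higher and 1 was lower in EC1118 in FSJ, beside 24.4% of all genes higher and 10.4% lower. The higher ones included RAT1, an exonuclease that trims the start of these RNAs (log2 1.06, adjusted p = 0.000175), and RRP6, an exonuclease that trims their end (log2 0.94, adjusted p = 0.00203). RNT1, the double-strand endonuclease that opens shared precursors, was higher by 0.79 (adjusted p = 0.0337), a call lost under 3 alternatives and without any 1 of M25 in FSJ replicates 1 and 3 and EC1118 in FSJ replicates 2 and 3 (0.0557 to 0.124). MTR4, DIS3 and PAP2, which act with the nuclear exosome, were higher by 0.77, 0.67 and 0.58, and PAP2 was lost without any 1 of M25 in FSJ replicates 1 and 3 and EC1118 in FSJ replicate 2 (0.0549 to 0.0717). Under quantile normalization and centring PAP2 was at 0.38 and 0.34 and not called (0.119 and 0.143). NRD1, which ends transcription of these genes, was the lower one, by -0.58 (adjusted p = 0.0334), and it was also lower in SJ by -0.65 (adjusted p = 0.0318). The SJ call was lost without any 1 of replicates 1 and 2 of M25 and 2 and 3 of EC1118 in SJ (0.0718 to 0.125), and the FSJ call without any 1 of replicates 1 and 3 of M25 and 2 and 3 of EC1118 in FSJ (0.0691 to 0.0976). In SJ no other factor of this list was called. With lipids, RAT1 fell in M25 by 0.67 on the log2 scale (adjusted p = 0.0151), a call lost with centring, quantile normalization and without M25 in SJ replicate 2 or 3 or M25 in FSJ replicate 2 (0.0521 to 0.078). RRP6 rose in EC1118 by 0.85 (adjusted p = 0.0366), a call lost under 3 alternatives and without any 1 of M25 in SJ replicates 2 and 3, replicate 3 of M25 in FSJ, EC1118 in SJ replicates 1 and 2 and EC1118 in FSJ replicates 1 and 3 (0.0501 to 0.134).

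Of the 4 promoter factors, RAP1, which binds promoters of ribosomal protein genes and of some of these RNA genes, was lower in EC1118 in both juices. Beside it, 9.09% of all genes were lower in SJ and 10.4% in FSJ. Its signal averaged 246.7 ± 17.0 in M25 and 105.2 ± 16.4 in EC1118 in SJ (log2 -1.24, adjusted p = 0.000633), and 274.5 ± 36.3 and 145.9 ± 35.9 in FSJ (log2 -0.93, adjusted p = 0.00248). TBF1, REB1 and ABF1, which bind many snoRNA gene promoters, passed no test.

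Among 29 proteins of the spliceosomal particles, 5 were higher and none was lower in EC1118 in FSJ (HSH155, PRP9, PRP31, SNU71 and RSE1), beside 24.4% of all genes higher. SNU71 was lost without any 1 of M25 in FSJ replicates 1 and 3 and EC1118 in FSJ replicates 2 and 3 (0.0588 to 0.0818), and RSE1 without M25 in FSJ replicate 1 or EC1118 in FSJ replicate 3 (0.0646 and 0.0674). Under quantile normalization and centring neither was called (SNU71 at 0.26 and 0.24, adjusted p = 0.19 and 0.212; RSE1 at 0.25 and 0.21, 0.147 and 0.214). In SJ, LEA1 was lower by -0.62 (adjusted p = 0.0115) and HSH155 higher by 0.71 (adjusted p = 0.0468), and the latter was lost without any 1 array of SJ but M25 replicate 3 (0.0977 to 0.168), under quantile normalization, no filter and no intensity trend (0.0539 to 0.0703), and changed sign with the mean of its probe sets (-0.021). Averaged over the strains, DIB1, a protein of the U4/U6.U5 particle, was higher in FSJ by 0.69 (adjusted p = 0.0112), and no other was called. LEA1 of the U2 particle rose with lipids in EC1118 by 0.66 (adjusted p = 0.0445), a call lost under quantile normalization, centring, signals raised to the background and the replicate block (0.0522 to 0.0984) and without any 1 array but M25 replicates 1 and 3 and EC1118 replicate 2 in FSJ (0.0564 to 0.132). Of 14 Sm and Lsm proteins, which form the rings on these RNAs, SMB1 was higher in EC1118 in FSJ by 1.45 (adjusted p = 0.000746) and SMX2 lower by -0.75, and 3 were lower in SJ (LSM3, SMX2 and LSM8), beside 24.4% of all genes higher and 10.4% lower in FSJ and 9.09% lower in SJ. LSM8 was lost without any 1 of replicates 1 and 3 of either strain in SJ (0.0577 to 0.0801). In M25 with lipids LSM2 fell by 0.59 (adjusted p = 0.0304) and SMB1 by 0.89 (adjusted p = 0.043). Quantile normalization and centring ended both calls (LSM2 0.15 and 0.109, SMB1 0.0864 and 0.0868), as did the replicate block for LSM2 (0.053) and no filter and no intensity trend for SMB1 (0.0666 and 0.0514). LSM2 was lost without any 1 of the M25 arrays in SJ or replicate 2 in FSJ (0.0598 to 0.12), and SMB1 without any 1 of the 6 arrays in SJ or M25 replicates 1 and 2 in FSJ (0.0563 to 0.151). The 2 measured genes of other stable RNAs, RPR1 of RNase P and TLC1 of telomerase, passed no test.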

How the data were processed

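RNA of 12 cultures, 3 per group, was hybridised to one-colour arrays, each culture to its own array. The deposited numbers are linear intensity values, to which the submitters' processing notes assign the tool MAS5, whose version and scaling the sources used here do not give. A trimmed mean of 297.8 to 299.9 per array left that scale as it was. Of 9335 probe sets, 60 controls were left out, and 7349 of the other 9275 passed the filter. After raising signals under 1 to 1, log2 values of the 12 arrays entered limma 3.58.1 (R 4.3.3) as group means with lmFit, then eBayes with an intensity trend and no block. Benjamini-Hochberg adjustment covered the 7349 probe sets. The number of arrays limits the precision.

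Where a gene had several probe sets, the one with the highest mean log2 signal stood for it. The RefSeq table served for names and gene order only, and no coordinates or promoter motifs were analysed here. A fold against a group under the background on all its arrays was computed against the backgrounds of those arrays, and no test was run on such a bound. The text names every member called in a comparison, the 3 brightest of each class, members of precursors, introns, the spliceosome and pre-rRNA cleavage, and of each related list genes by the p of the averaged lipid effect. Related and neighbouring genes named for a strain or single-strain call, and the members named for their array values, were chosen after their values were seen. The members, lists and comparisons were chosen with earlier results of these data known. The alternatives were quantile normalization, centring, a pseudocount of 16, dim signals set at the background, leaving out the filter or asking for 6 arrays over background, the replicate block, eBayes without the trend, probe sets averaged per gene, and each array left out.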

Additional observations from a re-analysis of the deposited data

How the results depend on the processing

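For the lipids averaged over the strains, where 0 members were called, 1 was called with centring, with signals raised to the background, without an intensity trend (SNR38 each time) and without a filter (SNR58, under the filter otherwise). In M25, with 1 called, it was 0 under quantile normalization, without a filter and without an intensity trend, 2 with signals raised to the background (SNR5 and SNR31), and 1 with centring, then SNR38 and not SNR5. In EC1118, with 0 called, 1 was called without a filter (SNR58). With single arrays left out, 0 to 1 members were called averaged over the strains, in M25, in EC1118 and for the difference between the strains, 3 to 8 for the strains in SJ and 7 to 12 in FSJ. Over all alternatives the strain counts were 3 to 8 in SJ and 7 to 16 in FSJ. The cause was not tested. Of 396 combinations of a called member value and an alternative, 332 kept the call, 64 lost it and none changed sign. Changing the filter, the replicate block, the intensity trend or an array outside the comparison leaves the fitted difference as it is. The sign could not change there, so these counts do not measure how firm a call is. The combinations include SNR31, SNR43, SNR57 and SNR7-L, which passed the filter on arrays of 1 strain alone, so the calls they kept add no support. With the mean of its probe sets, HSH155 in SJ turned from 0.71 to -0.021. Replicate numbers did not pair the samples (2 of 18 same-numbered pairs had r over 0.1, from -0.16 to 0.14). With the replicate number as a block, 7 members were called in SJ and 11 in FSJ between the strains, against 6 and 12, and calls over all probe sets for the difference between the strains went from 15 to 4; they were 60 with centring, 9 after quantile normalization and 10 with log2(signal + 16). Members near the background, over it on few arrays, have bounds rather than levels.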
